A study of Mus musculus with 12 samples.

Results

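The respiratory chain genes described here are the protein-coding genes whose symbols begin with Nduf, Uqcr, Atp5, Cox4 to Cox8, mt-Nd, mt-Co, mt-Atp or mt-Cytb, together with Sdha, Sdhb, Sdhc and Sdhd. The rule uses names only, leaves out symbols with -ps, and found 106 of the 50686 gene identifiers in the files, of which 93 lie on nuclear chromosomes and 13 on the mitochondrial chromosome. Of these, 102 passed the filter on low counts and were tested among 17754 genes (89 nuclear-encoded and 13 mitochondrial-encoded). The 4 that did not pass, Cox4i2, Cox7b2, Cox8b and Cox8c, are described by their counts.

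RNA-seq counts came from reporter-positive splenic B cells of 12 mice. pBIC mice (n = 6) carried p53F/F, Blimp1F/F and IKK2castopF/stopF alleles with Cg1Cre/+, and their B220+GFP+ cells were sorted. BIC mice (n = 3) carried the same alleles without floxed p53, with the same sort. YC mice (n = 3) were the normal controls, YFPstopF/+ with Cg1Cre/+, and their B220+YFP+ cells were sorted. All 3 groups therefore shared the Cre allele, which acts in cells that transcribe the IgG1 constant gene, and the labels present BIC and pBIC as models of ABC-DLBCL, a lymphoma of activated B cells. IKK2 activates canonical NF-kB signalling, and Blimp1 is a transcription factor of plasma cell differentiation. Ages and sexes are not stated in the labels.

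The respiratory chain passes electrons from NADH and succinate to oxygen in the inner mitochondrial membrane. Complex I (the Nduf genes) and complex II (the Sdh genes) feed electrons to ubiquinone, complex III (Uqcr) hands them to cytochrome c, and complex IV (Cox) reduces oxygen, while the ATP synthase (Atp5) uses the proton gradient built up by complexes I, III and IV. Most subunits are encoded in the nucleus and imported, but the hydrophobic cores of complexes I, III, IV and of the ATP synthase come from the mitochondrial chromosome, whereas complex II is encoded in the nucleus alone. Activated B cells raise their mitochondrial content and oxidative metabolism when they begin to grow and divide.

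Total counts per library ran from 33127283 to 47067627. Levels are in CPM (counts per 1e6 counts of a library, with the library size adjusted by TMM factors for differences in composition). A gene was called where the adjusted p of edgeR's quasi-likelihood test was under 0.05 over all genes tested. Trp53 averaged 23.7 ± 5.26 CPM in pBIC, 143 ± 68.4 CPM in BIC and 141 ± 5.29 CPM in YC (SD, n = 6, 3 and 3). Ikbkb, which encodes IKK2, averaged 488 ± 24.1, 448 ± 81 and 237 ± 17.5 CPM, and Prdm1, which encodes Blimp1, 11.6 ± 7.67, 26 ± 18.5 and 18.8 ± 1.04 CPM in the same order. These are sums over whole genes and do not show whether the floxed exons were removed. The B-cell markers Cd79a, Cd79b, Ms4a1, Cd22, Pax5 and Ptprc were detected in every library. Their sum was 2177 to 5928 CPM in pBIC, 7820 to 8014 CPM in BIC and 7104 to 8784 CPM in YC, so pBIC lay below both other groups. All 6 had negative log2 fold changes in pBIC against YC, with a median of -1.06 and 3 of them called (Ptprc, Pax5 and Cd22), and in pBIC against BIC, with a median of -1.18 and 4 called (Ptprc, Cd22, Cd79b and Ms4a1). Of all genes tested, 10.2% fell in pBIC against YC and 8.78% in pBIC against BIC. In BIC against YC none of the 6 was called, where 8.88% of all genes tested were. Ptprc, Pax5 and Cd22 were nevertheless lower in BIC without overlap, and Cd79a and Ms4a1 higher, where 23.2% and 21.9% of all genes were. The part of the B-cell marker differences in the respiratory chain values was not tested. Cd79a, a signalling chain of the B-cell receptor, stood at 161 to 1175 CPM in pBIC, 1269 to 1456 CPM in BIC and 931 to 1180 CPM in YC, lowest in pBIC 5 and pBIC 2, and Ms4a1, which encodes CD20, at 287 to 1543 CPM in pBIC, 2039 to 2317 CPM in BIC and 1029 to 1647 CPM in YC. Xist, a transcript of female cells, stood at 2.57 to 2632 CPM in pBIC, where libraries 2, 4 and 5 were above 100 CPM, at 1679 to 1827 CPM in BIC and at 0.0844 to 5.13 CPM in YC, so that BIC and YC differed throughout in this sex-linked transcript as well as in genotype, and the effects of sex and genotype cannot be told apart.

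Most nuclear-encoded genes rose in pBIC against YC and many in pBIC against BIC, and the mitochondrial-encoded genes were not called in any comparison. In pBIC against YC, 59 of the 102 tested genes rose and 0 fell, where 11.9% of all genes tested rose and 10.2% fell. In pBIC against BIC, 37 rose and 0 fell, where 10.9% of all genes tested rose and 8.78% fell. In BIC against YC, edgeR called 0 genes in either direction, where 3.90% of all genes tested rose and 4.97% fell (8.88% together). At an unadjusted p under 0.05 by edgeR there were 9 of 102 in that comparison, where 4565 of all 17754 genes tested were. DESeq2 called 2 respiratory chain genes, both higher, and limma voom 0, where they called 1459 and 659 of all genes higher. For pBIC against YC, leaving out YC 1 left 26 respiratory chain genes called higher and leaving out YC 2 left 28, with medians of the nuclear-encoded genes of 0.68 and 0.72. Over all genes, the number called higher was 2104 with all libraries, 1012 without YC 1 and 871 without YC 2. YC 1 stood apart from YC 2 and YC 3 in the summed erythroid markers (547 CPM, against 20.6 and 57 CPM) and neutrophil markers (271 CPM, against 9.14 and 2.73 CPM), whose part in these counts was not tested. For pBIC against BIC, 9, 17 and 20 respiratory chain genes were called without BIC 1, BIC 2 and BIC 3, with medians of 0.57, 0.64 and 0.58. Over all genes, 1937 were called higher with all libraries, and 735, 853 and 1186 without BIC 1, BIC 2 and BIC 3. In every leave-one-out fit 0 respiratory chain genes were called lower. Without pBIC 2 and pBIC 5, 47 were called higher against YC and 24 against BIC. All called genes were nuclear-encoded, 66.3% of the 89 tested in pBIC against YC and 41.6% in pBIC against BIC. Both pBIC comparisons use the same pBIC libraries, so their counts are not independent of each other. The BIC libraries are shared by the BIC against YC and pBIC against BIC comparisons, and the YC libraries by the comparisons against YC.

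The median log2 fold change of the nuclear-encoded genes was 0.72 in pBIC against YC and 0.62 in pBIC against BIC, against 0.10 and 0.09 over all genes tested. In BIC against YC it was 0.20, against 0.01 over all genes, and it was 0.12 without YC 1 and 0.32 without YC 3. The mitochondrial-encoded genes had medians of 0.45 in pBIC against YC, -0.01 in pBIC against BIC and 0.43 in BIC against YC. In pBIC against YC, 54 of the 102 genes had groups without overlap, all higher in pBIC, where 12.9% of all genes tested were higher without overlap. For pBIC against BIC there were 45, all higher in pBIC, where the share of all genes was 11.7%, and 9.90% were lower without overlap. For BIC against YC, 25 were higher in BIC without overlap and 1 lower, where the shares of all genes were 21.9% and 23.2%.

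**Figure D1:**
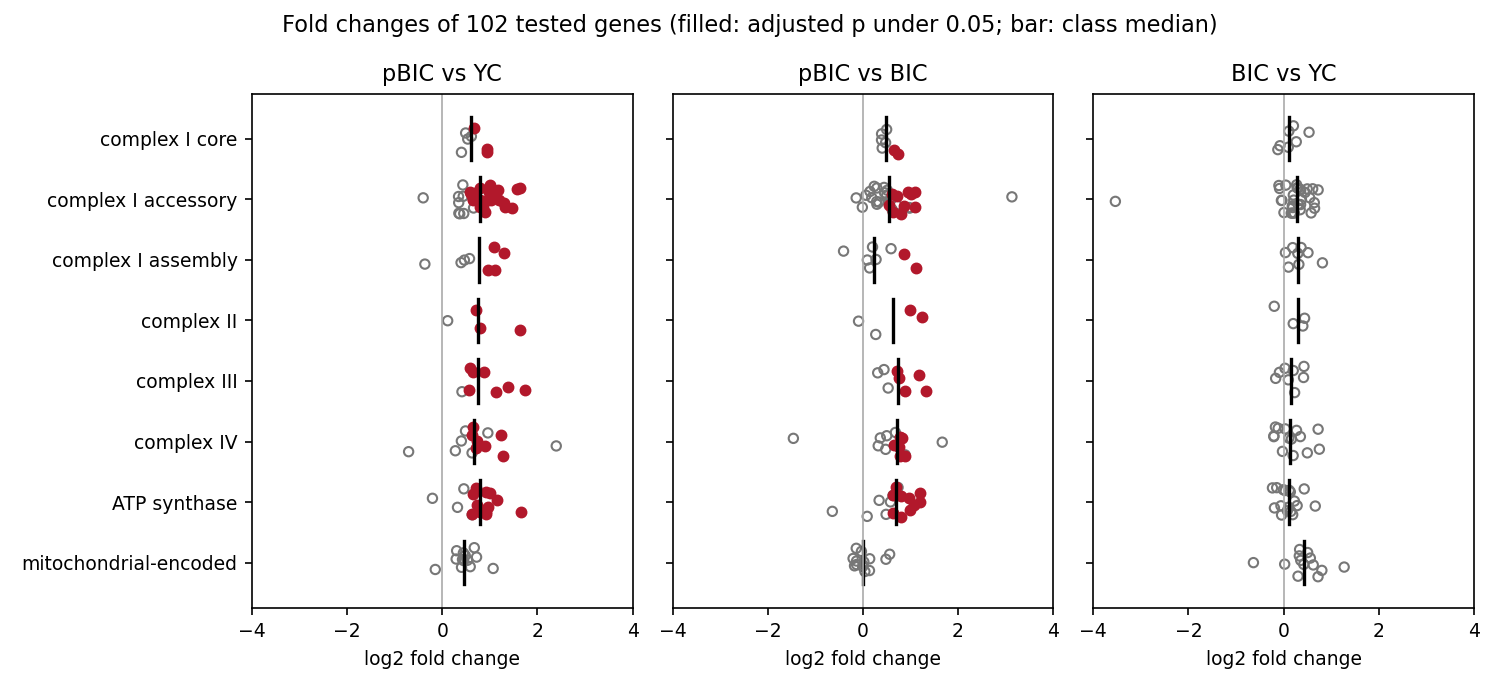
Log2 fold change (horizontal axis) of each of the 102 tested genes, by complex (rows), in the 3 comparisons (panels); filled points passed the edgeR test, open points did not, and the black bar is the median of the row. The filled points all lie to the right of 0 and stand in the pBIC panels, with none in the mitochondrial-encoded row.

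Summed over the 93 nuclear-encoded genes, pBIC libraries held 10775 ± 1457 CPM (SD, n = 6), BIC libraries 6544 ± 494 CPM (n = 3) and YC libraries 6162 ± 810 CPM (n = 3). The lowest pBIC library, pBIC 4 at 8600 CPM, was above the highest of the others, YC 3 at 7039 CPM. The mean of pBIC was 1.75 times that of YC and 1.65 times that of BIC, and the mean of BIC was 1.06 times that of YC. In sorted bulk cells, fewer cells of a type and less RNA per cell cannot be told apart, so a share of the library does not say how much transcript each cell held.

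Summed over the 13 mitochondrial-encoded genes, pBIC libraries held 27404 ± 7681 CPM (n = 6), BIC libraries 25810 ± 4375 CPM (n = 3) and YC libraries 20227 ± 2475 CPM (n = 3). These groups overlapped, with pBIC running from 17502 CPM in pBIC 5 to 38643 CPM in pBIC 1, outside the range of the other 6 libraries at both ends. The ratio of the mitochondrial to the nuclear sum was 2.61 ± 0.888 in pBIC, 3.93 ± 0.397 in BIC and 3.29 ± 0.0521 in YC. It was 1.39 in pBIC 5, 2.10 in pBIC 2 and 2.19 in pBIC 3, while pBIC 1 reached 3.85. Reads that map to several places were not counted. Of the 100-base stretches of mt-Co1 and mt-Nd4, 30.8% and 60.8% occur in another gene's annotated transcript. mt-Co2, mt-Co3, mt-Atp6, mt-Atp8, mt-Nd3 and mt-Nd4l held only a few CPM each. The mitochondrial sum and the ratio therefore describe counted reads, not transcript numbers.

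**Figure D2:**
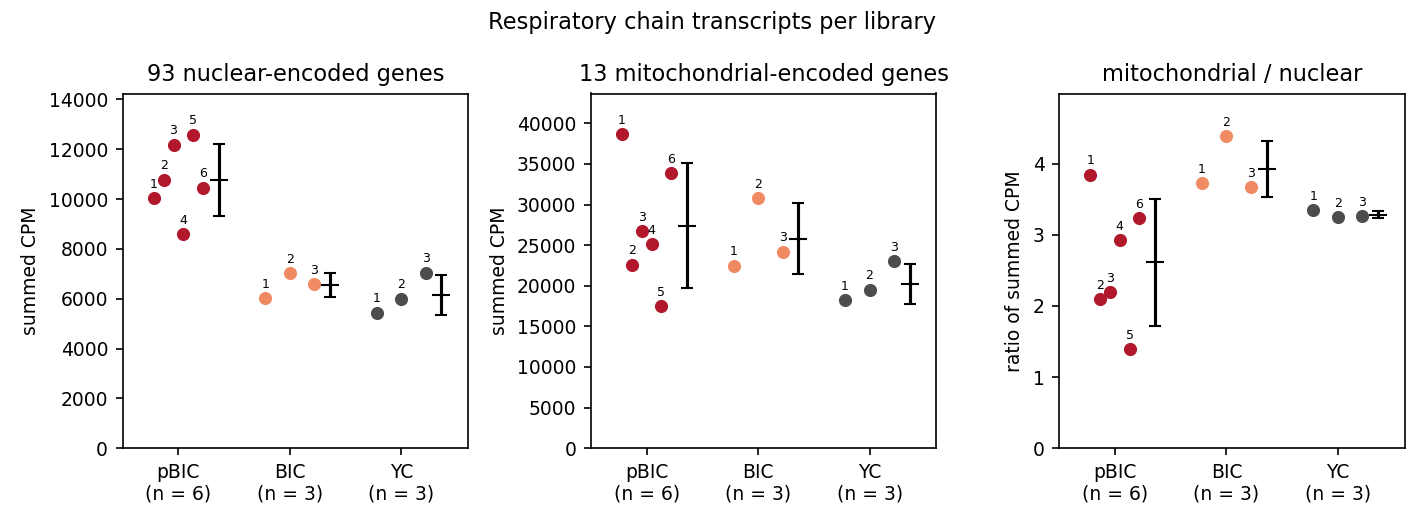
Summed CPM of the nuclear-encoded and the mitochondrial-encoded genes, and the ratio of the sums (vertical axes), in each library; numbers are the replicates and the bars beside the points are mean and SD. The 6 pBIC libraries lie above the other 6 for the nuclear sum, between 8600 and 12584 CPM, and spread across the others for the mitochondrial sum.

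Among the pBIC libraries the nuclear and the mitochondrial sums did not follow the same order. pBIC 5 was the highest of the 6 for 40 of the 89 tested nuclear-encoded genes and the lowest for 11 of the 13 mitochondrial-encoded genes. pBIC 4 was the lowest for 37 nuclear-encoded genes. Among YC libraries, YC 3 was the highest for 79 of 89 and YC 1 the lowest for 60, and the SD of log2 CPM had a median over genes of 0.32 in pBIC, 0.15 in BIC and 0.23 in YC for the nuclear-encoded genes, against 0.56, 0.32 and 0.26 over all genes tested. pBIC 5 also had the lowest Cd79a, at 161 CPM, and the highest erythroid marker sum of its group, at 428 CPM over 9 markers, where the other 5 pBIC libraries held 21.7 to 118 CPM. The part of either in these values was not tested.

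Complex I is the entry point for electrons from NADH. Its core subunits carry the flavin and iron-sulphur clusters, and its accessory subunits surround them. Of 7 nuclear-encoded core subunits tested, 3 rose in pBIC against YC and 2 in pBIC against BIC, and of 31 accessory subunits 22 and 10. The 31 were grouped by symbol. They include Ndufa4, since placed in complex IV and called in both comparisons, and its paralogue Ndufa4l2, which was not called. Ndufv2, an iron-sulphur subunit of the NADH-oxidising module, stood at 74.5, 104 and 115 CPM (lowest, median and highest) in pBIC, against 53.4, 56.6 and 71.4 CPM in BIC 1 to 3 and 46.2, 54.7 and 56.1 CPM in YC 1 to 3. Every pBIC library was above every other library. Its log2 fold change (± SE) was 0.95 ± 0.17 over YC, with an edgeR adjusted p of 0.00249, and 0.74 ± 0.17 over BIC, with an edgeR adjusted p of 0.0103.

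Ndufs7, a core iron-sulphur subunit near the ubiquinone site, rose in pBIC against YC (0.93 ± 0.20, edgeR adjusted p = 0.00688) but did not pass against BIC (0.39 ± 0.20, edgeR adjusted p = 0.176). Its level was 53.4 to 96.1 CPM in pBIC, 55.4 to 61.8 CPM in BIC and 31.8 to 46.5 CPM in YC, so BIC libraries lay inside the pBIC range. Ndufs1, the largest core subunit, was called only against BIC (0.65 ± 0.20, edgeR adjusted p = 0.0406) and had an adjusted p of 0.0753 against YC (edgeR); its call against BIC was kept in 7 of 22 alternative settings. Ndufs8, the core subunit with the most counts per kb of exon in YC, had log2 fold changes of 0.49 and 0.39, with edgeR adjusted p of 0.0509 and 0.112.

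Among accessory subunits the largest fold changes over YC were those of Ndufb9 and Ndufb6, which belong to the membrane arm. Ndufb6 stood at 24.6, 29.7 and 37 CPM (lowest, median and highest) in pBIC, against 12.9, 16.5 and 15.4 CPM in BIC 1 to 3 and 7.35, 10.3 and 12.9 CPM in YC 1 to 3. The groups of pBIC and BIC did not overlap, nor those of pBIC and YC, with log2 fold changes of 1.57 ± 0.23 against YC (edgeR adjusted p = 0.000946) and 1.02 ± 0.22 over BIC (edgeR adjusted p = 0.00871). Ndufb9 stood at 244 CPM in pBIC 3 and 61.9 to 117 CPM in the other 5 pBIC libraries, against 52.6 to 66.0 CPM in BIC and 32.8 to 42.1 CPM in YC. It rose against YC (1.62 ± 0.39, edgeR adjusted p = 0.0118), a call that was lost without YC 1 or without YC 2, and did not pass against BIC (0.97 ± 0.38, edgeR adjusted p = 0.0890).

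Ndufa9, an accessory subunit at the junction of the peripheral and membrane arms, and Ndufa12, of the peripheral arm, rose in both comparisons. Ndufa9 averaged 85.1 ± 8.41 CPM in pBIC, 46.5 ± 2.89 CPM in BIC and 49.2 ± 5.48 CPM in YC. Its log2 fold change was 0.79 ± 0.13 against YC (edgeR adjusted p = 0.00209) and 0.87 ± 0.13 over BIC (edgeR adjusted p = 0.00198). Ndufa12 averaged 45.8 ± 8.94, 21.5 ± 4.08 and 18.5 ± 2.82 CPM in pBIC, BIC and YC. Ndufa4, named for complex I but since placed in complex IV, averaged 116 ± 11.1 CPM in pBIC, 70.4 ± 6.71 CPM in BIC and 54.9 ± 12 CPM in YC, with log2 fold changes of 1.08 ± 0.16 against YC (edgeR adjusted p = 0.00121) and 0.72 ± 0.16 over BIC (edgeR adjusted p = 0.0102).

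Ndufa13, also known as a cell-death regulator, had another pattern. It stood at 49.8, 62.4 and 78.2 CPM (lowest, median and highest) in pBIC, against 62.1, 66.1 and 59.9 CPM in BIC 1 to 3 and 33.9, 38.4 and 47.9 CPM in YC 1 to 3. pBIC and BIC overlapped, and both lay above YC. The log2 fold change was 0.63 ± 0.17 in pBIC against YC (edgeR adjusted p = 0.0207), -0.01 ± 0.17 in pBIC against BIC (edgeR adjusted p = 0.968) and 0.65 in BIC against YC (edgeR adjusted p = 0.0590), the smallest p of any complex I accessory subunit in that comparison. Ndufa4l2, a paralogue of Ndufa4 known for its induction under low oxygen, was near the limit of detection, at 0 to 0.278 CPM in pBIC, 0 to 0.0436 CPM in BIC and 0.132 to 0.338 CPM in YC. It was not called.

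Assembly factors of complex I build the enzyme but are not part of it. Of 8 tested Ndufaf genes, 4 rose in pBIC against YC and 2 in pBIC against BIC. Ndufaf6 averaged 12.3 ± 1.99 CPM in pBIC, 5.67 ± 1.67 CPM in BIC and 4.96 ± 0.387 CPM in YC. It rose against YC (1.30 ± 0.27, edgeR adjusted p = 0.00574) and BIC (1.11 ± 0.27, edgeR adjusted p = 0.0144). Ndufaf4 rose against YC (1.11 ± 0.22, edgeR adjusted p = 0.00437), and Ndufaf7 rose against YC (0.96 ± 0.22, edgeR adjusted p = 0.00955) and BIC (0.86 ± 0.22, edgeR adjusted p = 0.0190). Ndufaf2 also rose against YC (1.09 ± 0.33, edgeR adjusted p = 0.0322), but 62.4% of its 100-base stretches occur in the annotated transcripts of other genes as well. All of these stretches occur in B230220B15Rik, which is not among the counted genes. What this did to the Ndufaf2 counts was not tested, so they are uncertain. Ndufaf8, the assembly factor with the most counts per kb of exon in YC, averaged 15.4 ± 3.73, 13.9 ± 1.62 and 11.1 ± 2.01 CPM in pBIC, BIC and YC and was not called.

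Complex II, succinate dehydrogenase, links the chain to the citric acid cycle, and of its 4 subunits 3 rose in pBIC against YC and 2 in pBIC against BIC. Sdhd, one of 2 membrane anchors, stood at 126, 185 and 267 CPM (lowest, median and highest) in pBIC, against 74.2, 89.0 and 75.5 CPM in BIC 1 to 3 and 56.4, 58.0 and 65.8 CPM in YC 1 to 3. Every pBIC library was above every other library. It rose in pBIC against YC (1.64 ± 0.24, edgeR adjusted p = 0.000945) and over BIC (1.23 ± 0.23, edgeR adjusted p = 0.00453). Sdhb, the iron-sulphur subunit, averaged 152 ± 19.1 CPM in pBIC, 76.6 ± 3.97 CPM in BIC and 87.7 ± 18.1 CPM in YC. It rose against both, by 0.79 ± 0.16 (edgeR adjusted p = 0.00586) and 0.98 ± 0.17 (edgeR adjusted p = 0.00285).

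Sdhc, the other membrane anchor, rose against YC (0.71 ± 0.19, edgeR adjusted p = 0.0217) and not against BIC (0.27 ± 0.19, edgeR adjusted p = 0.343). Sdha, the flavoprotein that oxidises succinate, stood at 151, 253 and 290 CPM (lowest, median and highest) in pBIC, against 253, 291 and 230 CPM in BIC 1 to 3 and 183, 231 and 258 CPM in YC 1 to 3. All 3 groups overlapped, and its log2 fold changes of 0.11 ± 0.20 and -0.09 ± 0.20 in the pBIC comparisons were within their errors (edgeR adjusted p = 0.727 and 0.780). The lowest Sdha value was that of pBIC 1. No test set Sdha against the other subunits.

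The stretch of DNA just upstream of Sdhd is shown because Sdhd had the largest fold change of complex II. The RefSeq start of Sdhd lies 60 bases from an annotated exon of Timm8b on the opposite strand, and only these 60 bases are printed, at chr9:50603850-50603909 on the minus strand of GRCm38.p6, 5′ to 3′. Capitals mark TTCCGG, which is the ETS-family core CCGGAA read on the other strand, and it begins 45 bases before the start.
Sdhd: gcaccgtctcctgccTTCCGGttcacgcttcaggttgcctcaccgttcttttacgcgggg

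Complex III passes electrons from ubiquinol to cytochrome c. Of its 8 nuclear-encoded genes with Uqcr symbols, 7 rose in pBIC against YC and 5 in pBIC against BIC. Uqcr11, the smallest subunit, had the largest log2 fold change among all called respiratory chain genes in both. It stood at 43.4, 80.9 and 97.0 CPM (lowest, median and highest) in pBIC, against 26.8, 34.3 and 32.2 CPM in BIC 1 to 3 and 17.4, 22.8 and 29.5 CPM in YC 1 to 3. pBIC did not overlap with BIC or YC, and pBIC 4 was the lowest pBIC library. It rose by 1.74 ± 0.26 against YC (edgeR adjusted p = 0.00110) and by 1.32 ± 0.25 against BIC (edgeR adjusted p = 0.00504).

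Uqcr10, another small subunit, ranged from 57.3 to 168 CPM in pBIC, against 43.4 to 49.3 CPM in BIC and 37.1 to 45.8 CPM in YC. It rose against YC (1.38 ± 0.30, edgeR adjusted p = 0.00678) and BIC (1.17 ± 0.29, edgeR adjusted p = 0.0167). Uqcrq, a ubiquinone-binding subunit, rose against YC (1.13 ± 0.21, edgeR adjusted p = 0.00361) and BIC (0.89 ± 0.21, edgeR adjusted p = 0.0133). Uqcrc2, a core structural subunit, averaged 195 ± 26.4, 118 ± 7.63 and 125 ± 21 CPM in pBIC, BIC and YC and rose against both (0.64 ± 0.16 and 0.73 ± 0.16, edgeR adjusted p = 0.0147 and 0.00984). Uqcrh, the hinge protein, was the only Uqcr gene not called in either, with log2 fold changes of 0.41 and 0.31. Uqcrb rose against YC alone (0.87 ± 0.20, edgeR adjusted p = 0.00898), with an edgeR adjusted p of 0.128 against BIC.

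The upstream sequence of Uqcr11 is shown for the same reason, at chr10:80406831-80407071 on the minus strand of GRCm38.p6, 5′ to 3′, ending 10 bases before the RefSeq start where the annotated first exon begins. Capitals mark 2 copies of the ETS core CCGGAA, 66 and 32 bases before the start.
Uqcr11: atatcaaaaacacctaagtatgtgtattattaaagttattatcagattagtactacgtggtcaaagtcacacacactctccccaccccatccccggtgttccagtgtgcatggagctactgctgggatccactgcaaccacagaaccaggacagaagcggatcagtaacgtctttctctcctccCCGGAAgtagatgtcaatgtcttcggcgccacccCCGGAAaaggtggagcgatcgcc

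Complex IV, cytochrome c oxidase, has isoforms that differ by tissue. Of its 14 tested nuclear-encoded genes with Cox symbols, 7 rose in pBIC against YC and 6 in pBIC against BIC. Cox7b, on the X chromosome, stood at 81.7, 124 and 152 CPM (lowest, median and highest) in pBIC, against 63.0, 77.3 and 68.5 CPM in BIC 1 to 3 and 46, 47 and 54.7 CPM in YC 1 to 3. The 3 groups did not overlap, and pBIC 1, 4 and 6, at 81.7 to 101 CPM, lay below the other 3 pBIC libraries. It rose against YC (1.27 ± 0.24, edgeR adjusted p = 0.00342) and BIC (0.77 ± 0.23, edgeR adjusted p = 0.0373), the second of which was kept in 10 of 22 alternative settings.

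Cox7a2, the ubiquitous form of its subunit, averaged 71.8 ± 13.1, 41.6 ± 3.39 and 38.5 ± 11.5 CPM in pBIC, BIC and YC and rose against YC (0.90 ± 0.21, edgeR adjusted p = 0.0111) and BIC (0.79 ± 0.21, edgeR adjusted p = 0.0235). Cox5a, a matrix-side subunit, stood at 44.8 to 79.4 CPM in pBIC, 30.6 to 39.1 CPM in BIC and 35.5 to 45 CPM in YC. It rose against both (0.72 ± 0.21 and 0.89 ± 0.21, edgeR adjusted p = 0.0306 and 0.0145). Cox6a1, the ubiquitous form of its subunit, averaged 158 ± 36.2, 93.9 ± 13.5 and 102 ± 7.77 CPM in pBIC, BIC and YC and rose against both (edgeR adjusted p = 0.0451 and 0.0267). Its call against YC was kept in 4 of 22 alternative settings and its call against BIC in 15 of 22. Cox6b1 rose against YC alone (0.70 ± 0.22, edgeR adjusted p = 0.0388) and Cox4i1, the common form of subunit 4, against BIC alone (0.83 ± 0.24, edgeR adjusted p = 0.0342, with 0.0831 against YC). Cox8a, the complex IV subunit with the most counts per kb of exon in YC, was not called, at 150 ± 32.6, 116 ± 17.6 and 114 ± 10.5 CPM in pBIC, BIC and YC. Cox7a2l, a factor that joins complexes III and IV into supercomplexes, was not called either (0.27 and 0.48, edgeR adjusted p = 0.353 and 0.119).

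The tissue-restricted isoforms were nearly absent. Cox6a2 and Cox7a1, forms of heart and skeletal muscle, averaged 1.10 and 1.14 CPM in pBIC, 0.345 and 0.711 CPM in BIC and 0.207 and 0.588 CPM in YC. Cox6b2, a form of testis, averaged 0.565, 1.57 and 0.926 CPM, and none of these 3 was called. Cox4i2, a form known from lung, had 0 counts in all 6 pBIC and all 3 BIC libraries, against 6, 7 and 10 counts in YC 1 to 3. A count of 0 allows up to 3 read pairs per library, which is more than 3 counts because mates were counted separately. The YC counts thus come from few read pairs and are not clearly beyond that limit. Cox8b had at most 7 counts in pBIC, 2 in BIC and 13 in YC, Cox7b2 had 1 count in all, in YC 2, and Cox8c had 0 in every library.

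**Figure D3:**
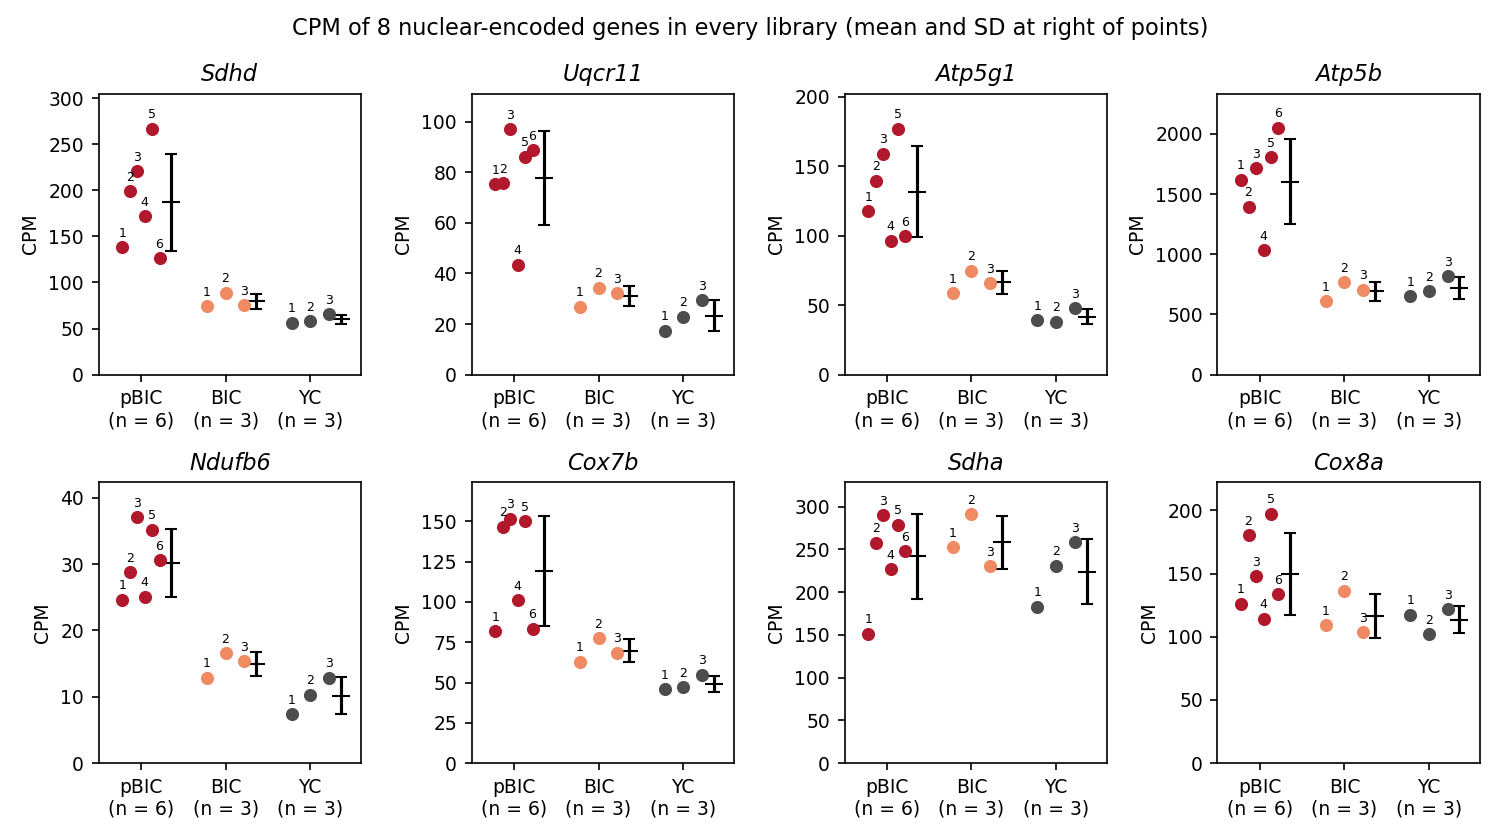
CPM (vertical axes, from 0) of 8 nuclear-encoded genes in each library, numbered by replicate, with mean and SD beside the points. Sdhd, Uqcr11, Atp5g1, Atp5b, Ndufb6 and Cox7b show all 6 pBIC points above the BIC and YC points, while Sdha and Cox8a overlap; the 8 were chosen for display after their values were seen.

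The ATP synthase turns the proton gradient into ATP. Of 17 tested Atp5 genes, 13 rose in pBIC against YC and 10 in pBIC against BIC, and their summed level was 4957 ± 700 CPM in pBIC, 2638 ± 220 CPM in BIC and 2609 ± 360 CPM in YC. Atp5b, the catalytic beta subunit, stood at 1034, 1667 and 2051 CPM (lowest, median and highest) in pBIC, against 610, 767 and 704 CPM in BIC 1 to 3 and 649, 691 and 820 CPM in YC 1 to 3. All 6 pBIC libraries were above the other 6, and pBIC 4 was again the lowest of its group. It rose against YC (1.16 ± 0.21, edgeR adjusted p = 0.00292) and BIC (1.21 ± 0.21, edgeR adjusted p = 0.00329), and BIC and YC differed by -0.05 (edgeR adjusted p = 0.910).

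Atp5a1, the alpha subunit, had the highest level per kb of exon among nuclear-encoded genes in pBIC and YC, and Cox8a did in BIC. Atp5a1 averaged 1268 ± 147 CPM in pBIC, 651 ± 45.1 CPM in BIC and 669 ± 107 CPM in YC. It rose by 0.92 ± 0.16 against YC (edgeR adjusted p = 0.00213) and by 0.96 ± 0.16 against BIC (edgeR adjusted p = 0.00252). Atp5g1, Atp5g2 and Atp5g3 encode the same mature c-ring protein. Atp5g1 stood at 96.3, 129 and 177 CPM (lowest, median and highest) in pBIC, against 58.7, 74.7 and 65.6 CPM in BIC 1 to 3 and 39.3, 38.1 and 47.8 CPM in YC 1 to 3.

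The 3 groups did not overlap for Atp5g1, which rose against YC (1.65 ± 0.22, edgeR adjusted p = 0.000605) and BIC (0.99 ± 0.21, edgeR adjusted p = 0.00880) and had a log2 fold change of 0.67 in BIC against YC (edgeR adjusted p = 0.102). Atp5g3 averaged 293 CPM in pBIC, 128 CPM in BIC and 151 CPM in YC, with log2 fold changes of 0.96 and 1.19 against YC and BIC (edgeR adjusted p = 0.0114 and 0.00528) and of -0.23 in BIC against YC. Atp5g2 rose against YC alone (0.63, edgeR adjusted p = 0.0484) and shares 34.7% of its 100-base stretches with other annotated transcripts. Of the others, Atp5s, a coupling factor outside the core enzyme, was the only one with a negative log2 fold change in both comparisons (-0.21 and -0.64, edgeR adjusted p = 0.678 and 0.174).

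The sequence upstream of Atp5b, the most highly counted of the called genes, is at chr10:128083057-128083272 on the plus strand of GRCm38.p6, 5′ to 3′, and ends where the annotated first exon begins, 35 bases before the RefSeq start. Capitals mark 5 CCAAT boxes, 4 as CCAAT and 1, at 164 bases before the start, as ATTGG.
Atp5b: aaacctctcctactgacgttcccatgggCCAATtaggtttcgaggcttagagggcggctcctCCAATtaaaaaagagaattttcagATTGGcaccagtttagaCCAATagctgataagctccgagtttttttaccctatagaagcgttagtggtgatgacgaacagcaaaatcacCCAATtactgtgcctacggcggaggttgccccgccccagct

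RefSeq promoter windows, 250 bases before to 50 after the start, were matched by symbol for 74 of the 93 nuclear-encoded genes and searched on both strands. The motifs were the ETS core CCGGAA, bound by the GABP (NRF2) family, the NRF1 site GCGCANGCGC, the YY1 core ATGGCG and the CCAAT box CCAAT, bound by NF-Y. GABP and NRF1 are known activators of respiratory chain genes. The ETS core was in 36.5% of the respiratory chain windows against 19.7% of the windows of all 16469 protein-coding genes matched, the NRF1 site in 24.3% against 6.86%, the YY1 core in 27.0% against 11.5%, and the CCAAT box in 44.6% against 38.7%. Among the 49 windows of genes called higher in pBIC against YC the shares were 36.7, 28.6, 28.6 and 36.7%, and among the 23 of genes tested and not called 39.1, 17.4, 21.7 and 60.9%, in the same order. A match describes the letters in a window and was not tested for binding.

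The 13 mitochondrial-encoded genes span the core of complex I (7 mt-Nd genes), complex III (mt-Cytb), complex IV (mt-Co1, mt-Co2, mt-Co3) and the ATP synthase (mt-Atp6, mt-Atp8). None was called in any of the 3 comparisons, and none had an unadjusted p under 0.05 by edgeR. DESeq2 and limma voom called none either. With a term for Xist, mt-Co1 was called higher in pBIC against YC (0.75, edgeR adjusted p = 0.0342), and the median of the 13 in that comparison was 0.71, against 0.45 without the term. mt-Co1, the catalytic subunit of complex IV, stood at 9675, 12997 and 20768 CPM (lowest, median and highest) in pBIC, against 10995, 14866 and 12032 CPM in BIC 1 to 3 and 9492, 9527 and 11670 CPM in YC 1 to 3. The groups overlapped, and pBIC 1 was the highest of all libraries. Its log2 fold change was 0.44 ± 0.24 in pBIC against YC (edgeR adjusted p = 0.198), 0.14 ± 0.23 in pBIC against BIC (edgeR adjusted p = 0.716) and 0.30 in BIC against YC (edgeR adjusted p = 0.514).

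mt-Cytb, the mitochondrial-encoded part of complex III, averaged 4956 ± 1665 CPM in pBIC, 4492 ± 762 CPM in BIC and 3553 ± 504 CPM in YC. Its log2 fold changes were 0.48 and 0.14 in pBIC against YC and BIC (edgeR adjusted p = 0.225 and 0.747). mt-Nd1 averaged 2814 ± 792, 2776 ± 591 and 1953 ± 382 CPM in pBIC, BIC and YC, mt-Nd2 1412 ± 515, 1443 ± 423 and 1147 ± 130 CPM, and mt-Nd4 1377 ± 492, 1513 ± 281 and 1126 ± 194 CPM. mt-Nd5 stood at 557 CPM in pBIC 5 and 2103 to 3426 CPM in the other 5 pBIC libraries, against 2109 to 2658 CPM in BIC and 1663 to 1955 CPM in YC.

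mt-Nd6, the one protein-coding gene on the other strand of the mitochondrial chromosome, stood at 115 CPM in pBIC 5 and 458 to 735 CPM in the other 5, against 544 to 675 CPM in BIC and 317 to 448 CPM in YC. Counts were made without strand, so they hold reads of either strand over mt-Nd6. Its levels and calls therefore cannot be assigned to the mt-Nd6 message alone. The ratio of the 7 mt-Nd genes to mt-Co1 was 0.283 in pBIC 5, 0.528 to 0.915 in the other 5 pBIC libraries, 0.664 to 0.707 in BIC and 0.584 to 0.691 in YC, so pBIC 5 differed in composition as well as in sum. Without pBIC 5, mt-Nd1, mt-Nd5 and mt-Nd6 were called higher in pBIC against YC (log2 fold changes 0.67, 0.61 and 0.66, edgeR adjusted p = 0.0364, 0.0388 and 0.0325). Without both pBIC 2 and pBIC 5, the libraries with the lowest Cd79a and Cd79b, an alternative chosen after seeing the data, mt-Cytb was called as well (0.70, edgeR adjusted p = 0.0491). In pBIC against BIC, 0 of the 13 were called under either.

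Neighbouring genes on the mitochondrial chromosome differed by over 100 times in counts per kb of exon. mt-Co1, mt-Cytb, mt-Nd1, mt-Nd2, mt-Nd4, mt-Nd5 and mt-Nd6 averaged 1000 to 8992 CPM per kb in pBIC, 1098 to 8175 in BIC and 750 to 6621 in YC. mt-Co2, mt-Co3, mt-Atp6, mt-Atp8, mt-Nd3 and mt-Nd4l averaged 2.59 to 8.23 CPM per kb in pBIC, 1.85 to 8.03 in BIC and 2.56 to 5.49 in YC, although these genes are copied from the same long transcripts. Reads that map to several places were not counted, per the file headers. Of their 100-base stretches, the length of a read, 97.6 to 99.9% of mt-Co2, mt-Co3, mt-Atp6, mt-Nd3 and mt-Nd4l also occur in the annotated transcript of another gene, against 60.8% of mt-Nd4, 30.8% of mt-Co1, 3.19% of mt-Nd2 and 0% of mt-Nd1, mt-Nd5, mt-Nd6 and mt-Cytb.

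**Figure D4:**
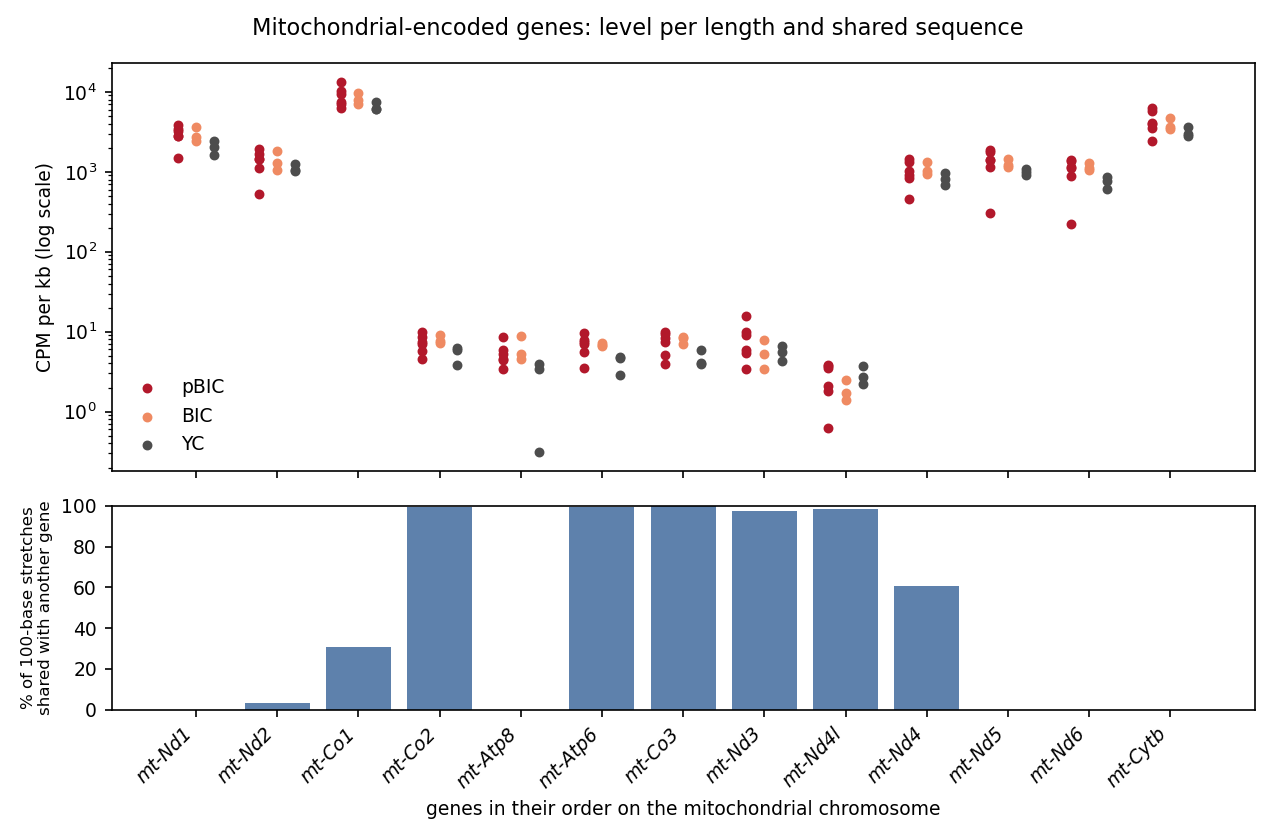
Above, CPM per kb of exon (log scale) of the 13 mitochondrial-encoded genes in each library, in their order on the chromosome and coloured by group; below, the share of each gene's 100-base stretches that also occur in another gene's annotated transcript. The 5 genes whose bars stand above 97% have group means of 1.85 to 8.23 CPM per kb, and so does mt-Atp8, whose bar is at 0, with 2.56 to 6.17.

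Among the copies, 7 pseudogenes form a run on the minus strand of chromosome 1, from 24611535 to 24616197 (GRCm38). mt-Nd2, mt-Co1 and mt-Co2 also share stretches with Gm13339, Gm13340 and Gm13341 on chromosome 2, and those of mt-Nd2 occur there alone. mt-Co2 matches Gm28661 at 681 of 681 aligned bases, mt-Atp6 matches Gm10925 at 678 of 678, mt-Co3 matches Gm28437 at 783 of 783 and mt-Nd4l matches Gm10222 at 294 of 294. mt-Nd3 and Gm28438 differ at 1 of 345 bases, T3C, counted from the first base of mt-Nd3 with the mitochondrial base first. mt-Atp8 shares no stretch with an annotated transcript, but it lies between mt-Co2 and mt-Atp6, whose chromosome 1 copies are 233 bases apart, as are the copied parts on the mitochondrial chromosome. That interval on chromosome 1 holds no annotated transcript and was not examined. The levels of these 6 genes are therefore uncertain, and their fold changes rest on few counts.

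The first 61 bases of mt-Nd3 and its copy are shown because the base in capitals is the 1 by which the aligned parts differ. mt-Nd3 is at chrM:9459-9519 on the plus strand and Gm28438 at chr1:24613059-24613119 on the minus strand (GRCm38), both 5′ to 3′.
mt-Nd3: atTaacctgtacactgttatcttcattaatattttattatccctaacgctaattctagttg
Gm28438: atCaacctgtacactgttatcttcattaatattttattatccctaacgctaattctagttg

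Among the 6 genes with few counts, mt-Co3 averaged 5.73 ± 1.85 CPM in pBIC, 6.30 ± 0.637 CPM in BIC and 3.60 ± 0.873 CPM in YC. Its log2 fold change of 0.81 in BIC against YC had the smallest p of the 13 (edgeR adjusted p = 0.217). mt-Co2 averaged 4.91 ± 1.31, 5.41 ± 0.650 and 3.66 ± 0.878 CPM in pBIC, BIC and YC, and mt-Atp6 4.65 ± 1.41, 4.67 ± 0.174 and 2.82 ± 0.755 CPM. mt-Atp8, mt-Nd3 and mt-Nd4l averaged 1.09, 2.87 and 0.770 CPM in pBIC, 1.26, 1.94 and 0.550 CPM in BIC and 0.521, 1.91 and 0.855 CPM in YC.

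BIC against YC asks whether active IKK2 and floxed Blimp1, with p53 alleles intact, went with a change in these genes. Besides Ndufa13, Atp5g1 and mt-Co3, the smallest p values of each class were those of Ndufaf2, Ndufs7, Sdhc, Uqcrb and Cox7b, with log2 fold changes of 0.82, 0.54, 0.44, 0.43 and 0.50 and edgeR adjusted p of 0.179, 0.152, 0.227, 0.245 and 0.252. Fitted on the BIC and YC libraries alone, without pBIC, the test called 13 of 101 respiratory chain genes higher and 0 lower. Among them were Ndufa13, Atp5g1, Ndufb9, Sdhd and mt-Nd6. Calls rose throughout in that fit: over all genes it called 4602, of which 2327 were higher, against 1576 and 693 in the fit of all 12 libraries. The share of all genes called in that fit was not computed. The 13 calls therefore do not set the respiratory chain genes apart from other genes. Neutrophil markers differed widely among these libraries, and 1 of 11 passed the test in BIC against YC: their sum over 11 markers was 61.2 to 1467 CPM in BIC and 2.73 to 271 CPM in YC, while 10 of the 11 fell in pBIC against BIC, where pBIC held 5.77 to 77.9 CPM. Only 4 of the 11 were lower there without overlap, where 9.90% of all genes were. The test called 3.90% of all genes tested higher and 4.97% lower in BIC against YC, and 8.78% lower in pBIC against BIC. Of 11 macrophage and monocyte markers, 8 were higher in BIC against YC without overlap and 1 was lower, where 21.9% and 23.2% of all genes were. The test called 1 higher and 1 lower. The lower one was Adgre1, at 3.32 to 4.09 CPM in BIC and 25.2 to 28.3 CPM in YC. The sum over the 11 markers was 183 to 311 CPM in BIC and 53.1 to 102 CPM in YC. The T-cell marker sum was 155 to 165 CPM in BIC and 63.6 to 94.7 CPM in YC. Of its 9 markers, 8 had log2 fold changes above 0, 4 were higher without overlap and the test called 1, higher. Much of the sum in BIC came from single genes, Cd3g in BIC 1 and BIC 2 (86.9 and 85.3 CPM) and Lck in BIC 3 (81.8 CPM). Lck was 38.7 and 46.1 CPM in BIC 1 and BIC 2, below the YC libraries at 49.6 to 77.7 CPM. The part of these marker differences in the respiratory chain values was not tested.

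Calls of 25 genes in pBIC against YC and of 9 in pBIC against BIC were kept in all 22 alternative settings, and the 9 were Atp5a1, Atp5b, Atp5g3, Ndufa12, Ndufa9, Ndufc2, Sdhb, Sdhd and Uqcr11.

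Genes outside the name rule that serve the same chain were listed separately. Of 6 carriers and complex III genes, 2 rose in pBIC against YC and 3 in pBIC against BIC, with none lower. Of all genes tested, 11.9% and 10.9% rose in these comparisons. Cycs, cytochrome c itself, averaged 80.9 ± 19.2 CPM in pBIC, 41.7 ± 10.4 CPM in BIC and 36.1 ± 4.42 CPM in YC. It rose against both (1.16 ± 0.23 and 0.96 ± 0.23, edgeR adjusted p = 0.00443 and 0.0135). Cyc1, the cytochrome c1 subunit of complex III, averaged 153 ± 32.6, 83.9 ± 14.3 and 80.4 ± 3.57 CPM and rose against both (0.92 ± 0.20 and 0.86 ± 0.20, edgeR adjusted p = 0.00663 and 0.0112).

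Of 41 assembly factors, 13 rose and 2 fell in pBIC against YC, 6 rose and 1 fell in pBIC against BIC, and 3 rose in BIC against YC. Of all genes tested, 11.9% rose and 10.2% fell in pBIC against YC, and 10.9% rose and 8.78% fell in pBIC against BIC. In BIC against YC, 3.90% of all genes tested rose and 4.97% fell. Ecsit, a complex I assembly factor, rose against YC and BIC (0.89 ± 0.15 and 0.62 ± 0.15, edgeR adjusted p = 0.00198 and 0.0136), and Cox20 fell against YC (edgeR adjusted p = 0.0194) at levels of 0.261 ± 0.151 CPM in pBIC and 1.05 ± 0.352 CPM in YC. Tmem70, an ATP synthase assembly factor, averaged 48.2 ± 14.5, 28.8 ± 0.942 and 16.5 ± 0.694 CPM in pBIC, BIC and YC and rose against YC (1.55 ± 0.27, edgeR adjusted p = 0.00224). Cox10, a haem farnesyltransferase for complex IV, rose against YC and BIC (0.71 ± 0.19 and 0.96 ± 0.19, edgeR adjusted p = 0.0193 and 0.00615). Bcs1l, which inserts the Rieske protein into complex III, and Coa5 were called in BIC against YC (0.95 and 1.11, edgeR adjusted p = 0.0242 and 0.0243) and in pBIC against YC (1.14 and 0.88, edgeR adjusted p = 0.00261 and 0.0192), and neither in pBIC against BIC. Sdhaf2, which attaches the flavin to Sdha, fell to 42.5 ± 6.64 CPM in pBIC, against 73.2 ± 13 CPM in BIC and 81.6 ± 18.2 CPM in YC (-0.79 ± 0.19 against BIC and -0.94 ± 0.19 against YC, edgeR adjusted p = 0.0132 and 0.00437).

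Of 77 mitochondrial ribosomal protein genes, 46 rose in pBIC against YC, 38 in pBIC against BIC and 0 in BIC against YC, with none lower in any and medians of 0.76, 0.65 and 0.07. Mrpl2 and Mrpl44 had the smallest p against YC (1.42 ± 0.19 and 1.71 ± 0.25, edgeR adjusted p = 0.000561 and 0.000933), and Mrpl19 and Mrpl35 against BIC (1.20 ± 0.18 and 1.31 ± 0.21, edgeR adjusted p = 0.00171 and 0.00239). Of 18 genes of mitochondrial RNA processing, 7 rose in pBIC against YC and 9 in pBIC against BIC. Of all genes tested, 11.9% and 10.9% rose in these comparisons. Lrpprc, which stabilises mitochondrial messages, averaged 218 ± 23.2 CPM in pBIC, 89.1 ± 9.67 CPM in BIC and 90.3 ± 2.89 CPM in YC. It rose against both (1.27 ± 0.14 and 1.29 ± 0.14, edgeR adjusted p = 0.000244 and 0.000630). Tbrg4, another factor of mitochondrial RNA stability, rose against both (0.96 ± 0.16 and 1.07 ± 0.16, edgeR adjusted p = 0.00205 and 0.00191), and Rexo2, a mitochondrial oligoribonuclease, rose in BIC against YC (1.31 ± 0.36, edgeR adjusted p = 0.0435). Supv3l1, an RNA helicase of mitochondrial RNA turnover, rose against both as well (1.34 ± 0.22 and 1.32 ± 0.22, edgeR adjusted p = 0.00183 and 0.00283).

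Of 20 genes of mitochondrial DNA replication and transcription, 4 rose and 2 fell in pBIC against YC, and 2 rose and 3 fell in pBIC against BIC, where 11.9% of all genes tested rose and 10.2% fell against YC, and 10.9% rose and 8.78% fell against BIC. Ssbp1, the mitochondrial single-strand binding protein, and Twnk, the replicative helicase, rose against YC (0.92 ± 0.14 and 1.29 ± 0.31, edgeR adjusted p = 0.00139 and 0.0122). Tk2, the mitochondrial thymidine kinase, fell to 26.7 ± 5.71 CPM in pBIC, against 67.8 ± 12.1 CPM in BIC and 68.0 ± 6.64 CPM in YC (-1.34 ± 0.19 against BIC and -1.35 ± 0.19 against YC, edgeR adjusted p = 0.00135 and 0.000856). Tefm, the mitochondrial transcription elongation factor, rose in pBIC and in BIC against YC (1.17 ± 0.21 and 0.84 ± 0.24, edgeR adjusted p = 0.00306 and 0.0454), and Dguok, the mitochondrial deoxyguanosine kinase, fell in pBIC against BIC (-0.83 ± 0.18, edgeR adjusted p = 0.00836). Rrm2b, a ribonucleotide reductase subunit known as a p53 target, fell against YC (-1.29 ± 0.32, edgeR adjusted p = 0.0146).

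Of 13 nuclear regulators, 1 rose in pBIC against YC, and 3 rose and 1 fell in pBIC against BIC, beside shares of all genes tested of 11.9% higher and 10.2% lower against YC and 10.9% higher and 8.78% lower against BIC. Myc, a growth regulator that binds many genes of mitochondrial biogenesis, averaged 898 ± 376 CPM in pBIC, 315 ± 144 CPM in BIC and 396 ± 142 CPM in YC. It rose against BIC (1.51 ± 0.43, edgeR adjusted p = 0.0299) but did not pass against YC (1.18 ± 0.42, edgeR adjusted p = 0.0646). Ppargc1b, a coactivator of respiratory genes, rose against YC and BIC (edgeR adjusted p = 0.0459 and 0.0347), with a log2 fold change of 0.90 ± 0.30 against YC, while Esrra, its nuclear receptor partner, fell against BIC (-0.69 ± 0.18, edgeR adjusted p = 0.0211). Of 14 citric acid cycle genes, 6 rose in pBIC against YC and 7 in pBIC against BIC, among them Mdh2, Suclg2 and Idh3a with log2 fold changes of 1.20, 1.17 and 1.32 against YC (edgeR adjusted p = 0.00211, 0.000401 and 0.00224).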

How the data were processed

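Poly(A) RNA of sorted splenic B cells was sequenced as 100-bp read pairs, per the labels' protocols. STAR, FastQC, limma, edgeR and featureCounts appear in the submitters' processing notes, with the builds mm10 and GRCm38. The authors deposited raw read counts per gene, made with featureCounts 1.5.0 over GENCODE exons per the file headers, counting mates separately, without strand (so that overlapping antisense genes cannot be told apart) and without reads that map to several places. The folder named in the header of YC 1 follows another naming pattern.

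Names came from GENCODE M21, which matched 50462 of 50686 identifiers; unmatched ones held at most 0.0174% of a library's counts. Counts were tested with edgeR 4.0.16 (R 4.3.3): TMM factors, the expression filter by group (minimum count 10), a robust quasi-likelihood fit of the 12 libraries with group means, and Benjamini-Hochberg adjustment over 17754 genes. SE was taken as the size of the log2 fold change over the root of F. CPM per kb divides by the union exon length in the files, which is long for some genes. Total counts of 33127283 to 47067627 put 3 counts at 0.0637 to 0.0906 CPM. Mates were counted separately, so the upper limit behind a 0, 3 read pairs, lies higher than this. Limits cover counting error only. Replicates are separate mice per the design text.

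The members and lists were chosen with earlier results of these data known. Named genes were all mitochondrial-encoded and Sdh genes, the Cox4, Cox6, Cox7a and Cox8 isoforms, Ndufa4, Ndufa4l2 and the targeted genes, and per class and comparison up to 2 called in each direction by smallest p (where none, the smallest p) and the highest level per kb; others named in the text (Uqcrh, Atp5g2, Atp5g3, Atp5s and the lists of calls kept) were chosen after their values were seen, as were the 3 promoters shown. Promoter sequences are RefSeq's (GRCm38.p6), other sequences GENCODE M21's. Shared stretches are exact 100-base matches between annotated transcripts. The tests were tested on simulated data. Alternatives were DESeq2 1.42.0, limma voom (limma 3.58.1), other scalings, no filter, a replicate block, an Xist term, the 2 groups alone and leaving out libraries. 1 B-cell marker, and sums that hold it, are not reported here.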

Additional observations from a re-analysis of the deposited data

Results flagged for a closer look

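Among 62 values examined over the 6 pBIC libraries, 2 had a library whose gap to its nearest neighbour was large for the group's range, and chance flags about 1 in 20 such groups. Ndufb9 was highest in pBIC 3, at 244 CPM, with the next library at 117 CPM. Ndufa9 was highest in pBIC 5, at 102 CPM, with the next at 84.9 CPM.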

How the results depend on the processing

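No gene called in the main test changed sign in any alternative. The number of genes called higher was 26 to 63 in pBIC against YC, 9 to 45 in pBIC against BIC and 0 to 1 in BIC against YC when 1 library was left out in turn. Over the other alternatives it was 42 (Xist term) to 64 (DESeq2) in pBIC against YC and 23 (no filter) to 47 (DESeq2) in pBIC against BIC, with 24 in pBIC against BIC without pBIC 2 and pBIC 5. In BIC against YC, DESeq2 called 2 (Ndufa13 and Ndufa6), the fit on the 2 groups alone 13, and the fit without pBIC 2 and pBIC 5 1 (Ndufa13). Over all genes these fits called 1459, 2327 and 854 higher. The numbers of respiratory chain genes called lower moved in 2 settings: 1 in pBIC against YC without a filter (Cox4i2) and 1 in pBIC against BIC with a term for Xist (Ndufaf3). The median of the mitochondrial-encoded genes in BIC against YC was 0.93 with the Xist term, against 0.43. The cause was not tested. With limma voom, 43.1% of all calls in pBIC against YC were higher, against 53.7% with edgeR.

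Replicate numbers showed no strong pairing of the libraries: deviations of same-numbered libraries from their group means correlated at -0.11 to 0.17. With so few libraries per group, these correlations cannot exclude a pairing. With a replicate block the numbers called higher were 52 in pBIC against YC, 32 in pBIC against BIC and 1 in BIC against YC (Atp5g1). Genes with few counts limit what the low mitochondrial-encoded genes and tissue-restricted isoforms can show.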
